A study of Xenopus laevis with 6 samples.

Results

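The genes described here encode splicing factors and subunits of the spliceosome, measured in *Xenopus laevis* embryos at the 8-cell stage. They were chosen by symbol alone: names that start with srsf, snrp, sf3a, sf3b or prpf, lsm followed by a digit (without *lsm14a* and *lsm14b*), and hnrnp (without *hnrnpab*). This gave 76 genes with 131 probe sets, out of 11303 genes that the array annotation names. The endings .L and .S mark the copies (homeologs) that arose when this frog's genome was doubled, each copy is counted as a gene, and the 76 genes belong to 61 differently named ones. Each gene is represented by its probe set with the highest mean log2 intensity.

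Total RNA was compared between 3 samples of animal blastomeres, the pigmented cells at the top of the embryo, and 3 of the vegetal-most portion of the embryo. The latter are vegetal cells with the equatorial region removed and discarded, so that the middle of the embryo is not represented. Embryos came from hormone-induced matings of 2 pairs of frogs, carried no mutation or treatment that the labels name, and were freed of jelly and fixed in acidified ethanol before dissection. Each sample was hybridized to a one-colour array, and values are scaled intensities. No label ties a replicate to a clutch of its own, and the p-values thus cover only the spread among these samples, which may be technical.

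Splicing removes introns from RNA in the nucleus. Small nuclear RNAs, each bound by a ring of Sm or LSm proteins and by particle-specific proteins, form the U1, U2, U4/U6 and U5 particles that assemble on each intron. SR proteins, which carry stretches rich in arginine and serine, mostly promote the use of splice sites, and hnRNP proteins package RNA and often oppose them, while many of both also act in the cytoplasm. At this stage the embryo's own genome is nearly silent, so that these messenger RNAs were laid down in the egg.

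Most splicing genes differed little between the poles. Of the 76 genes, all of which passed the filter on low intensity, 24 were higher on the animal side, 18 on the vegetal side and 34 did not pass the test (limma across the whole array, Benjamini-Hochberg adjusted p under 0.05, as for every adjusted p here). That is 31.6% and 23.7% of them, 55.3% in all. Of all 8026 genes tested, 27.1% were called towards animal and 23.7% towards vegetal, 50.9% in all, and of all probe sets 31.7% and 20.5%, 52.2% in all. Arrays are scaled to the same level, so a lower value is read here as a lower share of the RNA in a sample. Whether all pooled cells or only some of them have that lower share cannot be told. RNA quality, which moved with the groups, and disagreement between probe sets of one gene limit this reading, as given below. Differences of at least 2-fold were found for 4 of the 76, or 5.26%, against 14.5% of all genes (7.95% towards animal and 6.57% towards vegetal). The count was 3 after quantile normalization, 5 after median centring and 9 with spiked-control scaling, or 3.95%, 6.58% and 11.8%, against 14%, 15.1% and 17.3% of all genes. As deposited those 4 were *srsf12.L*, *srsf6.L* and *srsf5a.L*, higher in animal samples, and *lsm4.S*, higher in vegetal samples. The animal and vegetal arrays did not overlap for 48 of the 76, or 63.2%, against 58.3% of all genes. Differences lay within 0.5 (log2) of no change for 72.4% of the splicing genes and 62.5% of all genes, and the median size of the difference was 0.28 and 0.36 (log2). For all 34 genes that did not pass, the 95% interval of the representing probe set excluded a 2-fold change either way. The same held for 3383 of all 3944 genes that did not pass. The median half-width of the 95% interval was 0.196 (log2) for the splicing genes and 0.284 for all genes. The splicing genes and all genes were not matched for brightness. The part of brightness in these shares was not tested. Among the 34, *lsm2.L*, *lsm7.L* and *srsf1.L* had other probe sets over 2-fold higher in animal samples, as given below.

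**Figure D1:**
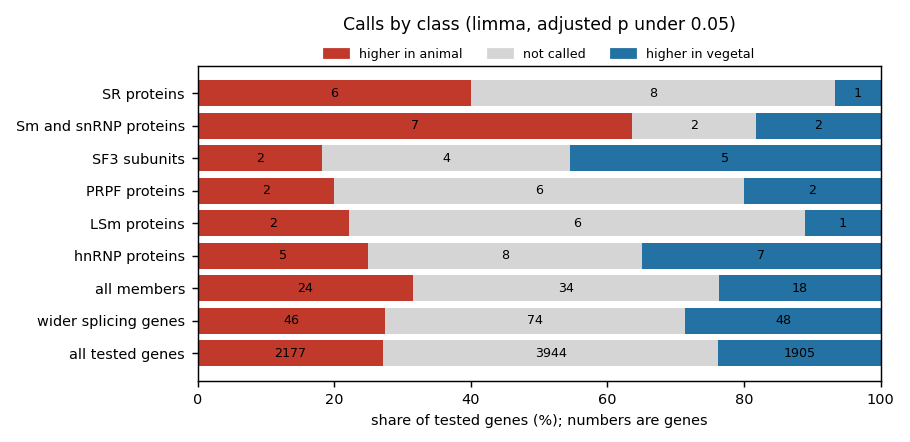
Shares of tested genes that were higher in animal samples, not called, or higher in vegetal samples (limma, adjusted p under 0.05), for each class of splicing gene, for all 76 together, for 168 further splicing genes and for all 8026 genes tested. The x axis is the share in percent and the numbers in the bars count genes. The bars for all 76 and for all genes are alike, and the Sm and snRNP class has the longest animal part, 7 of 11. These are calls as deposited, and after median centring that class had 3 towards animal and 4 towards vegetal.

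**Figure D2:**
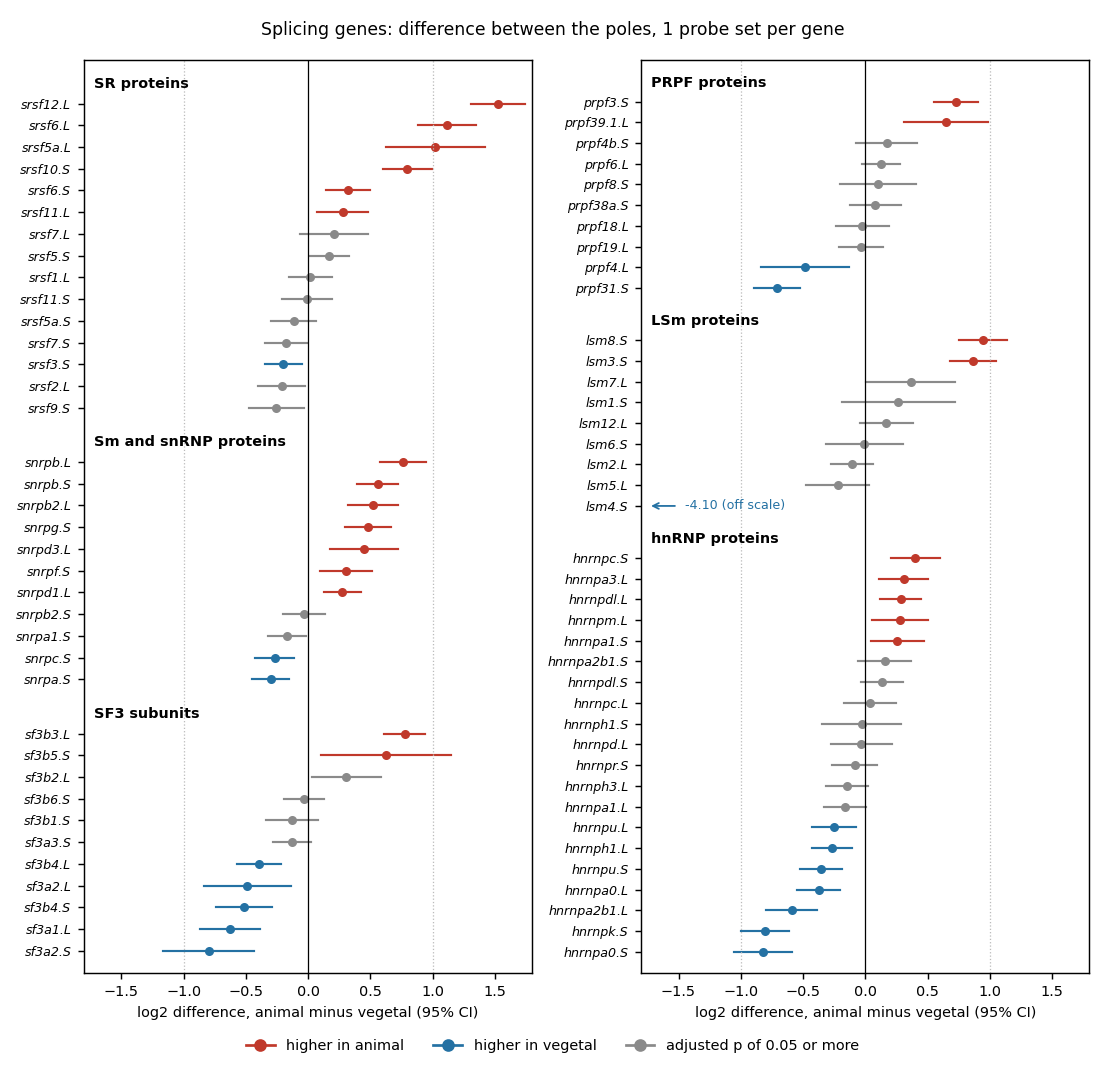
Log2 difference between animal and vegetal samples for each of the 76 genes (points, 3 arrays against 3) with its 95% confidence interval (lines), by class. Dotted lines mark 2-fold. All but 4 points lie within those lines, and *lsm4.S*, at -4.10, lies off the scale.

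The balance of directions depends on how arrays are scaled to one another, so each direction was set against 3 other scalings. As deposited, the median difference was 0.005 (log2, animal minus vegetal) for the splicing genes and 0.033 for all genes. With arrays centred on their medians the all-gene median moved to -0.24, and 11 splicing genes were called towards animal and 36 towards vegetal. With arrays scaled to the spiked hybridization controls, RNAs of microbial origin, it moved to 0.27, and the counts were 32 and 4. After quantile normalization they were 27 and 15. Relative to all genes, the median of the splicing genes was at -0.028 as deposited and at 0.075 after quantile normalization. Median centring and spiked-control scaling multiply each array by a constant. They therefore could hardly alter this value, which was -0.028 with each. Under all 4 scalings 15 splicing genes were called the same way, 11 higher in animal and 4 higher in vegetal samples, which is 14.5% and 5.26% against 14.8% and 10.3% of all genes.

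These 15 are *srsf12.L*, *srsf6.L*, *srsf5a.L*, *srsf10.S*, *snrpb.L*, *snrpb.S*, *snrpb2.L*, *sf3b3.L*, *prpf3.S*, *lsm3.S* and *lsm8.S* on the animal side, and *lsm4.S*, *prpf31.S*, *hnrnpa0.S* and *hnrnpk.S* on the vegetal side. Each also kept its call without any single array and under the other settings tried, except where the probe sets of a gene were averaged or its dimmest one was taken, as described with the probe sets. Over all 42 calls, 31 held without any 1 array, a share that was not counted over all genes. The 11 that ended without at least 1 array were *srsf3.S*, *srsf11.L*, *snrpd3.L*, *snrpf.S*, *sf3a2.L*, *sf3b5.S*, *prpf4.L*, *hnrnpa1.S*, *hnrnpdl.L*, *hnrnpm.L* and *hnrnpu.L*.

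The representing probe sets of all 76 genes were above the highest unspiked control on each of the 6 arrays. The poles carried the known localized RNAs: *nanos1.L*, *dazl.L* and *gdf1.S* differed 235-fold, 63.1-fold and 35.2-fold towards vegetal and *dand5.S* 8.29-fold towards animal. Of 13 follicle and blood genes, which would mark cells clinging to the embryo, 12 lay below the intensity filter, and *slc4a1.L*, an anion exchanger of red cells, read 443.0 to 516.2 in animal and 610.3 to 682.2 in vegetal samples. For *gapdh* the 3' control probe set over the 5' one gave 3.96 to 4.31 on animal and 6.96 to 7.77 on vegetal arrays, a measure of RNA and labelling quality that moved with the groups. For *actin* the same ratio was far larger, at 131 to 274 on animal and 287 to 371 on vegetal arrays. By both controls signal was thus lost towards the 5' end, more so on vegetal arrays. The part of RNA quality in the differences below was not tested.

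By the representing probe sets, the largest animal differences were in SR proteins. Other probe sets of the LSm gene *lsm2.L* differed more, as given below. Of 15 tested, 6 passed towards animal and 1 towards vegetal, with a median of 0.17 (log2). That is 40% and 6.67%, against 27.1% and 23.7% of all genes. After quantile normalization the counts were 8 and 0, after median centring 4 and 6, and with spiked-control scaling 8 and 0. Over all genes they were 2060 and 2180, 1192 and 3283, and 2785 and 824 in that order. The counts of this and the other classes under each scaling are to be read beside these. The 3 splicing genes called at least 2-fold higher in animal samples, as deposited, are all in this class, and each has a single probe set.

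*srsf12.L* encodes a small SR-type protein related to SRSF10, reported in mammals to restrain splicing. It read 933.4, 1050.5 and 789.0 on the animal arrays and 317.6, 320.1 and 318.4 on the vegetal arrays. The groups were far apart, and it was 2.88-fold higher in animal samples (95% interval 2.48 to 3.34, adjusted p = 8.57e-09). Its relative *srsf10.S*, which in mammals represses splicing once dephosphorylated, read 834.9, 837.0 and 889.5 in animal and 558.8, 470.9 and 449.9 in vegetal samples. It was 1.74-fold higher in animal samples (1.52 to 1.99, adjusted p = 4.1e-06) by this probe set. Its dimmer probe set read 71.3 to 103.7 in animal and 70.5 to 108.2 in vegetal samples and was not called.

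*srsf6.L* (SRp55, an activator of exons) read 508.2, 497.9 and 419.8 in animal and 213.9, 245.1 and 199.5 in vegetal samples. It was 2.17-fold higher in animal samples (1.84 to 2.545, adjusted p = 7.17e-07). *srsf5a.L*, a relative of the SR protein SRSF5, was dimmer, at 110.1, 84.3 and 78.6 in animal and 49.8, 47.1 and 37.1 in vegetal samples. The lowest animal array was above the highest vegetal one, and the difference was 2.03-fold (1.54 to 2.675, adjusted p = 0.000313). *srsf6.S* was 1.25-fold and *srsf11.L* 1.21-fold higher in animal samples. Both calls ended after median centring, and that of *srsf11.L* also without single arrays (adjusted p up to 0.148, without animal replicate 2).

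The other SR proteins showed smaller differences in either direction. *srsf5.S* (SRp40) read 1303.0, 1413.1 and 1309.2 in animal and 1238.5, 1148.7 and 1187.9 in vegetal samples, which did not overlap, but it did not pass (adjusted p = 0.0633). It passed towards animal after quantile normalization and with spiked-control scaling (adjusted p = 0.00251 and 0.00458), and its second probe set was 1.59-fold higher in animal samples (adjusted p = 6.49e-06). *srsf7.L* was at 0.21 (log2) and did not pass (adjusted p = 0.188). *srsf1.L*, the classic factor that helps U1 bind the 5' splice site, read 3076.3, 3461.9 and 3714.8 in animal and 3441.2, 3113.3 and 3563.5 in vegetal samples, and the groups overlapped. As deposited it did not pass (adjusted p = 0.877). After quantile normalization and with spiked-control scaling *srsf1.L* passed towards animal, at 0.25 and 0.26 (log2, adjusted p = 0.000217 and 0.00775). *srsf3.S*, a small SR protein that also helps export messenger RNA, was 1.15-fold higher in vegetal samples (1.03 to 1.28, adjusted p = 0.0282). This call ended in 8 settings. These were quantile normalization (where another probe set was the brightest), spiked-control scaling, no filter, no variance trend, the replicate block (adjusted p = 0.0611), the mean of its probe sets, and the fits without animal replicate 3 or vegetal replicate 1 (adjusted p = 0.0662 and 0.0994). With spiked-control scaling *srsf3.S* was at 0.04 (log2). *srsf2.L* and *srsf9.S* were at -0.21 and -0.25 (log2) and missed the threshold (adjusted p = 0.0532 and 0.053).

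**Figure D3:**
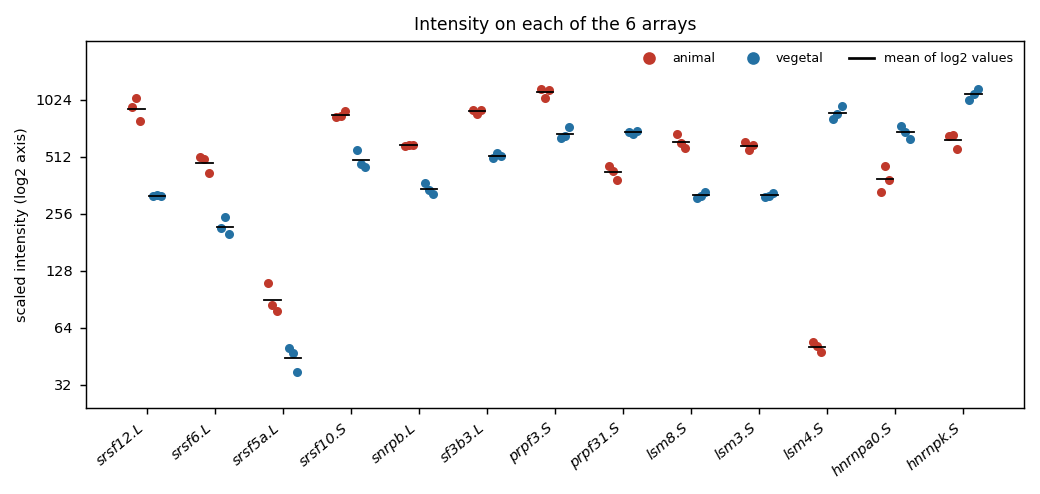
Scaled intensity on each of the 6 arrays (points, log2 axis) for 13 of the 15 splicing genes called the same way under all 4 scalings, with the mean of the log2 values in each group (bars). In each gene the 3 animal points (left) and the 3 vegetal points (right) do not overlap, and the gap is widest for *lsm4.S*, at 47.5 to 53.6 in animal and 813.4 to 944.6 in vegetal samples.

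Of the 11 tested genes of the Sm and snRNP class, 7 passed towards animal and 2 towards vegetal. That is 63.6% and 18.2%, against 27.1% and 23.7% of all genes. The counts were 7 and 1 after quantile normalization, 3 and 4 after median centring and 7 and 0 with spiked-control scaling. The Sm ring is the core shared by the U1, U2, U4 and U5 particles. The planned classes do not set this ring apart. Those of its genes that were tested were on the animal side by their brightest probe sets. They include both copies of *snrpb* and none for the ring proteins D2 and E, so the ring is covered only in part. All 6 tested genes (*snrpb.L*, *snrpb.S*, *snrpd1.L*, *snrpd3.L*, *snrpf.S* and *snrpg.S*) were higher in animal samples, by 0.28 to 0.76 (log2), as were 27.1% of all genes. The same 6 of 6 passed after quantile normalization and with spiked-control scaling, and 2 of 6, the *snrpb* copies, after median centring, where the differences were 0.008 to 0.50. A second probe set of *snrpb.L* ran the other way, as given with the probe sets, and that of *snrpd1.L* was at -0.10 (log2) and not called. With the mean of its probe sets *snrpd1.L* was at 0.09 (log2) and not called (adjusted p = 0.275). *snrpb.L* read 583.9, 589.7 and 592.2 in animal and 371.8, 343.0 and 326.3 in vegetal samples, a 1.70-fold difference towards animal (1.495 to 1.93, adjusted p = 3.18e-06). *snrpb.S* read 1098.9, 1161.1 and 1081.0 in animal and 804.7, 740.6 and 721.6 in vegetal samples, 1.475-fold (1.315 to 1.65). *snrpg.S* was 1.40-fold, *snrpd3.L* 1.36-fold, *snrpf.S* 1.235-fold and *snrpd1.L* 1.21-fold higher. The call of *snrpd3.L* ended without animal replicate 2 (adjusted p = 0.0519), and that of *snrpf.S* without animal replicate 1 (0.0719) or animal replicate 2 (0.054).

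Proteins particular to the U1 particle, which recognises the 5' splice site, lay on the other side as deposited, by their brightest probe sets. *snrpa.S*, the U1 protein A, read 1206.6, 1211.2 and 1214.9 in animal and 1499.8, 1444.7 and 1527.7 in vegetal samples, 1.23-fold higher in vegetal samples (1.11 to 1.36, adjusted p = 0.00207). *snrpc.S*, the U1 protein C, was 1.205-fold higher in vegetal samples by its brighter probe set. Its other probe set ran towards animal, at 0.17 (log2), with groups that did not overlap, and was not called (adjusted p = 0.0887). With spiked-control scaling both *snrpa.S* and *snrpc.S* were within 0.06 (log2) of no change. The call of *snrpc.S* also ended after quantile normalization, without the variance trend (adjusted p = 0.06) and with the mean of its probe sets (-0.05, log2, adjusted p = 0.588). *snrnp70.L*, a further U1 protein that the symbol rule leaves out, read 380.1, 341.7 and 315.0 in animal and 503.3, 552.4 and 563.4 in vegetal samples, 1.56-fold higher in vegetal samples (1.36 to 1.802, adjusted p = 4.8e-05). Its call ended with spiked-control scaling (adjusted p = 0.0565). Of the U2 proteins, *snrpb2.L* was 1.44-fold higher in animal samples, whereas *snrpb2.S* and *snrpa1.S* did not pass. The brightest probe set of *snrpa1.S* was at -0.17 (log2), but a dimmer one was called 1.40-fold higher in animal samples (adjusted p = 0.000127). Its other tested probe sets were not called.

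SF3A and SF3B are subcomplexes of the U2 particle that hold the branch point. Of their 11 tested genes 2 passed towards animal and 5 towards vegetal, with 2 and 5 after quantile normalization, 1 and 8 after median centring, and 3 and 0 with spiked-control scaling. As deposited that is 18.2% and 45.5%, against 27.1% and 23.7% of all genes. In SF3A, *sf3a1.L*, *sf3a2.L* and *sf3a2.S* were 1.54-fold, 1.405-fold and 1.74-fold higher at the vegetal pole, while *sf3a3.S* did not pass (adjusted p = 0.134). *sf3a2.S* read 40.3, 46.5 and 38.3 in animal and 77.1, 69.6 and 70.3 in vegetal samples, so that the groups were apart on dim signals. None of these 3 calls held with spiked-control scaling, where the differences were -0.25 to -0.56 (log2), and that of *sf3a2.L* also ended without single arrays (adjusted p up to 0.0868, without animal replicate 2).

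SF3B was mixed. *sf3b3.L*, a large scaffold subunit, read 901.8, 866.2 and 902.5 in animal and 501.1, 537.8 and 518.7 in vegetal samples. Each group was tight and the difference was 1.715-fold towards animal (1.53 to 1.92, adjusted p = 8.23e-07). Both copies of *sf3b4*, an RNA-binding subunit, were higher in vegetal samples, by 1.315-fold for *sf3b4.L* and 1.43-fold for *sf3b4.S*, and neither call held with spiked-control scaling, nor that of *sf3b4.S* with the mean of its probe sets. *sf3b5.S*, a small subunit, was 1.54-fold higher in animal samples on dim signals of 19.3 to 46.7, a call that ended after quantile normalization, after median centring, with no filter, without the variance trend, with the replicate block (adjusted p = 0.0615) and without single arrays (adjusted p up to 0.159, without vegetal replicate 1). *sf3b1.S*, which grips the branch point, and *sf3b6.S*, its small partner, did not pass (adjusted p = 0.277 and 0.721). The scalings called *sf3b6.S* in opposite directions. It passed towards animal after quantile normalization (0.17, log2, adjusted p = 0.00688) and towards vegetal after median centring (-0.30, adjusted p = 0.0224).

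Of the 10 PRPF genes tested, 5 were grouped with the U4/U6 and U5 particles. Among all 10, 2 passed towards animal and 2 towards vegetal. That is 20% each way, against 27.1% and 23.7% of all genes. The counts were 3 and 2 after quantile normalization, 1 and 4 after median centring and 4 and 1 with spiked-control scaling. *prpf3.S*, a protein of the U4/U6 particle, read 1167.9, 1044.3 and 1159.3 in animal and 642.8, 656.7 and 735.5 in vegetal samples. It was 1.66-fold higher in animal samples (1.465 to 1.875, adjusted p = 3.7e-06), and its dimmer probe set was 2.885-fold higher there.

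*prpf31.S*, which sits on the U4 RNA of the same particle, was on the opposite side. It read 454.5, 427.9 and 387.8 in animal and 693.7, 676.1 and 701.2 in vegetal samples, 1.63-fold higher in vegetal samples (1.44 to 1.86, adjusted p = 6.92e-06). *prpf3.S* and *prpf31.S* kept opposite signs, each past the threshold, under all 4 scalings. The other probe sets of *prpf31.S* were too dim to be tested. They read 15.7 to 27.4 in animal samples and did not exceed the unspiked controls in vegetal samples, so that they ran against the bright one.

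Of the other PRPF genes, *prpf4.L*, which binds PRPF3, was 1.40-fold higher in vegetal samples on signals of 66.0 to 114.2. Its call ended with spiked-control scaling and without single arrays (adjusted p up to 0.114, without animal replicate 3). *prpf39.1.L*, whose yeast counterpart works with U1, was 1.57-fold higher in animal samples, a call that ended after median centring (adjusted p = 0.0556). The U5 proteins *prpf8.S*, at the heart of the catalytic centre, and *prpf6.L*, which links U5 to U4/U6, did not pass (adjusted p = 0.577 and 0.144). Nor did *prpf19.L*, a ubiquitin ligase needed for activation, at 884.3 to 1037.7 in animal and 961.6 to 1052.3 in vegetal samples.

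LSm proteins held the largest vegetal difference among the 76 genes. Of 9 tested, 2 passed towards animal and 1 towards vegetal, with 2 and 2 after quantile normalization, 2 and 3 after median centring and 3 and 1 with spiked-control scaling. As deposited that is 22.2% and 11.1%, against 27.1% and 23.7% of all genes. LSm2 to LSm8 form a ring on U6 RNA in the nucleus, while LSm1 takes the place of LSm8 in a cytoplasmic ring that promotes decapping and decay of messenger RNA. *lsm4.S*, a member of both rings, read 53.6, 51.1 and 47.5 in animal and 813.4, 856.3 and 944.6 in vegetal samples. It was 17.2-fold higher in vegetal samples (14.6 to 20.1, adjusted p = 7.58e-13), and -3.86 to -4.37 (log2) over the 4 scalings. A single probe set stands for it, so that no second probe set checks it.

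Both other called members of the U6 ring were on the animal side. *lsm8.S*, the member specific to the nuclear ring, read 672.7, 607.2 and 569.9 in animal and 308.7, 316.1 and 334.0 in vegetal samples, a 1.93-fold difference towards animal (1.68 to 2.20, adjusted p = 5.94e-07). Its other probe sets were 1.47-fold and 1.33-fold higher in animal samples and were called too. *lsm3.S* read 609.3, 553.7 and 589.7 in animal and 314.5, 316.9 and 330.7 in vegetal samples, a 1.82-fold difference towards animal (1.61 to 2.07). *lsm5.L*, *lsm6.S*, *lsm7.L* and, by its brightest probe set, *lsm2.L* did not pass, although the dimmer probe sets of *lsm7.L* were called towards animal (1.46-fold and 2.44-fold). *lsm1.S*, specific to the decay ring, read 34.2, 34.6 and 39.7 in animal and 25.8, 34.4 and 30.4 in vegetal samples, which overlapped. *lsm12.L*, which is not part of either ring, did not pass (adjusted p = 0.175).

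The hnRNP proteins split both ways with small differences. Of 20 tested, 5 passed towards animal and 7 towards vegetal, the median was -0.06 (log2) and none reached 2-fold as deposited. That is 25% and 35%, against 27.1% and 23.7% of all genes. The counts were 5 and 5 after quantile normalization, 0 and 11 after median centring and 7 and 2 with spiked-control scaling. *hnrnpa0.S* and *hnrnpk.S*, both on the vegetal side, were the only ones called the same way under all 4 scalings. *hnrnpr.S*, not called as deposited, was called in opposite directions by other scalings. It passed towards animal after quantile normalization (0.14, log2, adjusted p = 0.0131) and towards vegetal after median centring (-0.35, adjusted p = 0.0194).

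*hnrnpa0.S*, a relative of hnRNP A1 that binds AU-rich RNA, read 333.1, 456.0 and 387.1 in animal and 744.3, 688.1 and 634.9 in vegetal samples, 1.77-fold higher in vegetal samples (1.502 to 2.08, adjusted p = 1.87e-05). *hnrnpk.S*, a KH-domain protein that binds C-rich RNA, read 655.7, 668.1 and 560.0 in animal and 1026.1, 1095.2 and 1167.4 in vegetal samples, 1.75-fold higher (1.53 to 1.99, adjusted p = 2.49e-06). Of its 4 other probe sets, 2 were called towards vegetal and 2 did not pass, of which 1 was at 0.23 (log2). *hnrnpa2b1.L*, which in mammals helps carry RNAs to cell processes, was 1.51-fold higher in vegetal samples, and the call ended with spiked-control scaling (adjusted p = 0.0791). Its dimmer probe set read 199.8 to 251.8 in animal and 202.7 to 232.3 in vegetal samples and was not called (adjusted p = 0.629).

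*hnrnpu.S* and *hnrnpu.L*, which encode a large scaffold protein of the nucleus, differed 1.28-fold and 1.19-fold towards vegetal. The call of *hnrnpu.L* ended without any of 4 single arrays (adjusted p up to 0.0888, without vegetal replicate 1), with no filter, without the variance trend and after quantile normalization, where the difference was -0.02 (log2, adjusted p = 0.742). Neither call held with spiked-control scaling. On the animal side the largest by representing probe sets was *hnrnpc.S*, a protein that packages newly made RNA. It read 1389.3, 1500.9 and 1517.6 in animal and 1287.6, 1064.6 and 1001.1 in vegetal samples. It was 1.32-fold higher (1.15 to 1.51, adjusted p = 0.00193), and the call ended after median centring (0.339). *hnrnpa3.L*, *hnrnpdl.L*, *hnrnpm.L* and *hnrnpa1.S* were 1.19-fold to 1.24-fold higher in animal samples, and none of these calls held after median centring. Without single arrays the calls of *hnrnpa1.S* and *hnrnpm.L* ended 4 times each (adjusted p up to 0.175 and 0.176) and that of *hnrnpdl.L* once (0.0559, without animal replicate 2). *hnrnpdl.S* did not pass as deposited (adjusted p = 0.164), but its second probe set was 1.39-fold higher in animal samples (adjusted p = 0.000631). After quantile normalization and with spiked-control scaling *hnrnpdl.S* passed towards animal (adjusted p = 0.000201 and 0.0303).

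For 15 names both the .L and the .S copy were tested, which allows the copies to be compared on the same arrays. The difference between the copies was formed within each array, so that multiplying an array by a constant barely alters it, and was tested over all 1357 such pairs of the array. The copies differed in 8 of the 15 pairs, or 53.3%, against 48.2% of all pairs (adjusted p under 0.05). In 1 of them, *srsf5a*, the copies differed by over 1 (log2), against 19.5% of all pairs. As deposited no pair had copies called in opposite directions, against 121 of the 1357. After median centring 2 of the 15 did, *srsf5a* and *snrpb2*, against 115 of the 1357. Each of these 2 had the .L copy higher in animal and the .S copy higher in vegetal samples. Quantile normalization does alter the pair values: 8 pairs again differed, but *srsf7* dropped to 0.07 (log2, adjusted p = 0.691) and out of the called pairs, *hnrnpu* came in (0.18, adjusted p = 0.0243), and no pair reached 1. Over the 15 pairs the .L and .S differences had Pearson's r of 0.52 and Spearman's rho of 0.47, and over all pairs 0.24 and 0.25. Both copies share arrays and possibly probes.

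*srsf5a.L* was higher in animal samples and *srsf5a.S*, at 1710.9, 1878.7 and 1884.2 in animal and 2005.7, 1761.3 and 2179.2 in vegetal samples, was not called. The copies differed by 1.14 (log2, 0.71 to 1.56, adjusted p = 0.000389), and by 0.83 after quantile normalization (0.46 to 1.19, adjusted p = 0.00121). For *srsf6* both copies were on the animal side and the .L copy by 0.79 (log2) more (0.54 to 1.04, adjusted p = 9.67e-05). *hnrnpa2b1.L* was vegetal and *hnrnpa2b1.S* not called, 0.75 (log2) apart (0.46 to 1.04 in size, adjusted p = 0.00051). By its dimmer probe set, however, *hnrnpa2b1.L* was at 0.07 (log2) and not called. *snrpb2*, *hnrnpa0*, *hnrnpa1*, *srsf7* and *hnrnpc* differed by 0.36 to 0.56 (log2). The brightest probe set of *srsf7.S* was at -0.18 (log2) and not called. Its dimmer one was called 1.54-fold higher in animal samples (adjusted p = 0.000181). In the 7 pairs that were not called, the 95% interval excluded a 2-fold difference between copies, as in 536 of all 703 pairs not called. These pair values use only the representing probe set of each copy. Without the variance trend 5 of the 15 pairs differed, and 6 to 9 without 1 array.

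**Figure D4:**
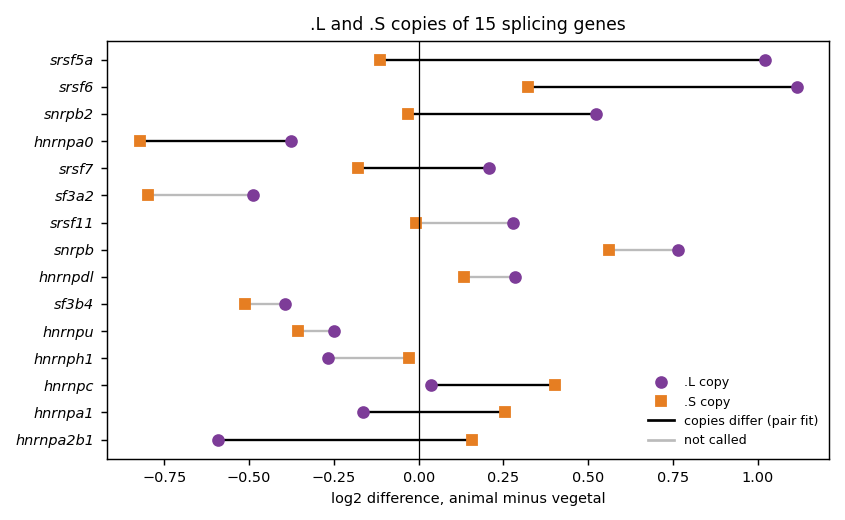
Log2 difference between animal and vegetal samples for the .L copy (circles) and the .S copy (squares) of the 15 splicing genes with both copies tested. Black lines join copies that differed in the pair fit (8 pairs) and grey lines those that were not called. The widest gap is in *srsf5a*, at 1.02 for the .L and -0.12 for the .S copy.

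Several genes gave different answers by different probe sets. Of 30 splicing genes with more than 1 tested probe set, 5 had probe sets called in opposite directions, or 16.7%, against 7.33% of all 1692 such genes. These 5 were *snrpb.L*, *lsm3.S*, *srsf11.L*, *srsf3.S* and *hnrnpa3.L*. The span between a gene's probe sets reached 1 (log2) for 6 of the 30, or 20%, against 20.6% of all such genes. The dimmest probe set lay further to the animal side than the brightest in 17 of the 30 genes, or 56.7%, against 63.1% of all such genes.

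The widest span was in *lsm2.L*, another member of both LSm rings. Its brightest probe set read 736.0, 709.6 and 698.4 in animal and 726.9, 817.4 and 761.7 in vegetal samples and did not pass. A second read 1162.0, 791.7 and 883.4 in animal and 27.9, 56.0 and 42.2 in vegetal samples, a 23.1-fold difference towards animal (17.1 to 31.2, adjusted p = 1.21e-10). The remaining one read 326.3, 327.5 and 317.7 in animal and 57.8, 48.1 and 48.8 in vegetal samples, 6.30-fold higher (5.24 to 7.59, adjusted p = 2.06e-10). The 3 probe sets thus give different answers for *lsm2.L*, and the mean of them was at 2.36 (log2, animal minus vegetal).

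*snrpb.L* was 1.70-fold higher in animal samples by its brighter probe set, but the other read 118.6, 104.9 and 107.8 in animal and 437.2, 305.4 and 420.2 in vegetal samples, 3.47-fold higher in vegetal samples (2.84 to 4.24, adjusted p = 3.81e-08). With the mean of its probe sets it was higher in vegetal samples, at -0.52 (log2, adjusted p = 0.000412). The second probe set of *lsm3.S* was 1.415-fold higher in vegetal samples (adjusted p = 0.00282), and the mean of both did not pass (adjusted p = 0.119). For *srsf1.L* the other probe sets were 1.15-fold and 2.60-fold higher in animal samples and were called (adjusted p = 0.0481 and 0.000316). Those of *sf3b1.S* were 1.33-fold to 1.79-fold higher in animal samples and were called, while the brightest was not. Whether the array's probe sets for one symbol bind different transcript forms or other genes was not tested.

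**Figure D5:**
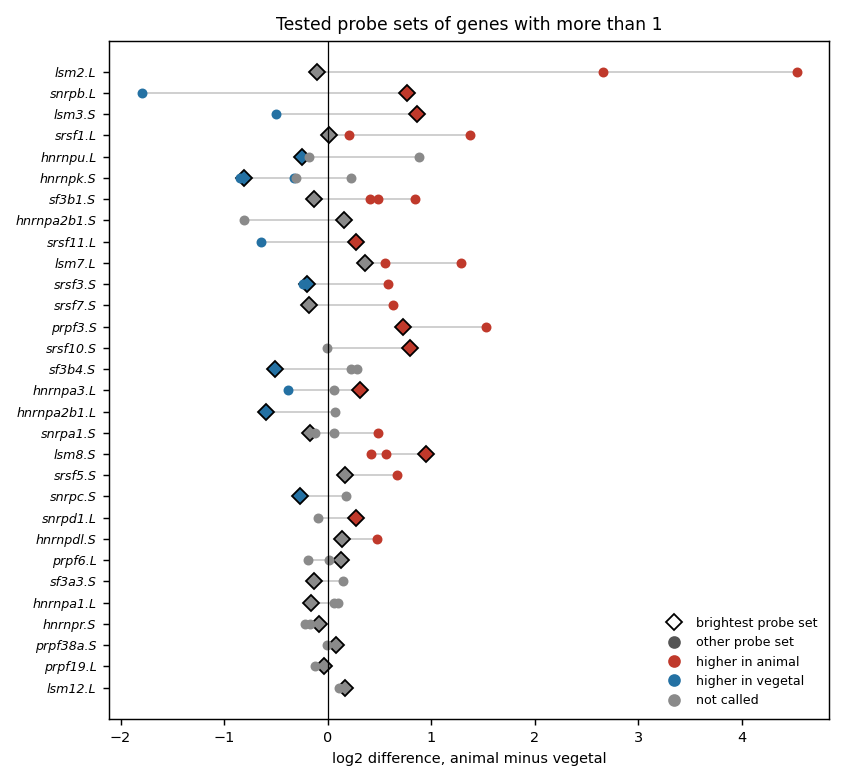
Log2 difference between animal and vegetal samples for each tested probe set of the 30 splicing genes with more than 1, ordered by the span between them. Diamonds are the brightest probe set of a gene and circles the others, coloured by call. The span is 4.63 for *lsm2.L* and 2.56 for *snrpb.L*, and 0.06 for *lsm12.L*.

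Splicing genes that the symbol rule does not take were called about as often. A list of 167 names (further particle proteins, catalytic-stage factors, exon junction and export factors, regulators, kinases and assembly factors) met 173 genes on the array, of which 168 were tested. Of these, 46 passed towards animal and 48 towards vegetal, or 56% called against 50.9% of all genes, with a median of 0.01 (log2). The counts were 17 and 79 after median centring, and 60 and 12 with spiked-control scaling. At least 2-fold differences were found for 5 genes in the animal and 6 in the vegetal direction, 6.55% against 14.5% of all genes. These genes were not matched for brightness with all genes either.

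The largest animal differences there were in *ptbp1.L*, *esrp1.L* and *nova1.L*. *ptbp1.L*, which binds pyrimidine-rich tracts and represses exons, read 343.8, 297.2 and 270.0 in animal and 30.3, 38.5 and 35.6 in vegetal samples. This was an 8.73-fold difference towards animal (7.01 to 10.9), and its dimmer probe set was 2.04-fold higher there. The brighter copy *ptbp1.S*, at 1120.6 to 1173.4 in animal and 866.8 to 927.1 in vegetal samples, differed only 1.29-fold towards animal. *esrp1.L*, an epithelial splicing regulator, read 492.5, 516.8 and 504.8 in animal and 110.5, 144.3 and 152.5 in vegetal samples, 3.75-fold higher (3.14 to 4.48, adjusted p = 5.36e-09). *nova1.L*, known as a splicing regulator of neurons, was 3.28-fold higher in animal samples (2.48 to 4.33). On the vegetal side *thoc6.L*, a subunit of the export complex TREX, read 41.7, 47.8 and 38.2 in animal and 789.7, 623.2 and 515.4 in vegetal samples, 14.9-fold higher there (11.95 to 18.7). *khdrbs1.S* (Sam68, an RNA-binding signalling protein) was 3.89-fold higher in vegetal samples, and its other tested probe sets were 1.304-fold and 1.36-fold higher there. *strap.L*, a partner of the SMN complex that loads Sm rings, was 3.17-fold higher in vegetal samples on signals of 24.1 to 92.2.

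Factors that work directly with the members were picked by name, whereas the genes above were picked for the size of their difference. *u2af2.S*, which binds the pyrimidine tract beside the branch point, was 1.38-fold higher in animal samples by its brighter probe set (adjusted p = 8.37e-05), not called by the other (0.248), and not called after median centring (0.128). Its partner *u2af1.S* and *sf1.S*, the first protein on the branch point, did not pass (adjusted p = 0.151 and 0.0746). *u2af1.S* passed towards vegetal after quantile normalization and median centring, and *sf1.S* towards animal after quantile normalization, with spiked-control scaling and without animal replicate 1 or vegetal replicate 1 (adjusted p = 0.044 and 0.0349). The U5 helicase *snrnp200.L* and the U5 GTPase *eftud2.S* were higher in animal samples by 0.51 and 0.38 (log2). The call of *snrnp200.L* ended without animal replicate 1, animal replicate 2, vegetal replicate 1 or vegetal replicate 3 (adjusted p = 0.122, 0.131, 0.135 and 0.0972), and also after quantile normalization (0.17), median centring (0.321), with no filter (0.0883) and with the replicate block (0.0526). That of *eftud2.S* ended without animal replicate 1, animal replicate 3, vegetal replicate 1 or vegetal replicate 3 (adjusted p = 0.14, 0.0824, 0.0562 and 0.08), and also after quantile normalization (0.157), median centring (0.514, at 0.11 on the log2 scale) and with no filter (0.0547). *srpk1.S*, a kinase of SR proteins, was 1.21-fold higher in vegetal samples, and not with spiked-control scaling (adjusted p = 0.886).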

How the data were processed

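The authors' deposited table holds 1 linear intensity for each probe set and array, made with GCOS per the submitters' processing notes. The GCOS version and its background correction are not given in the sources read. The 2% trimmed mean was 150.03 to 150.04 on each of the 6 arrays, so values were used as deposited. Of 32635 probe sets, 96 controls were left out of tests, and 15495 others had 1 symbol in the platform annotation, which can be old. Those with several symbols (279, of which 4 name splicing genes) were not named. Intensities below 1 were raised to 1 before log2. The dimmest 40% by mean log2 (mean intensity below 6.94) were dropped, and 19523 probe sets were tested.

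The groups were compared in limma 3.58.1 under R 4.3.3 (lmFit, eBayes with a variance trend, two-sided, Benjamini-Hochberg over all probe sets tested). The fit and the pair fit were tested on simulated data. The highest of 59 unspiked controls was 4.1 to 6.7. The number of arrays limits precision. Values of scaled arrays are read as each RNA's share, not its amount per embryo part. The protein sequences planned for description were not used here.

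Members and lists were chosen with earlier results of these data known. Genes named were, in each class, called members of at least 2-fold with non-overlapping groups and the largest called member each way, copies over 1 (log2) apart, and, of the wider list, the 3 largest each way and direct partners. Other members were named after their values were seen. Homeologs may share probes. Alternatives were the 3 other scalings, no filter or a 60% one, no trend, the replicate number as a block, a floor of 8, the mean of a gene's probe sets that passed the filter, and each array left out.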

Additional observations from a re-analysis of the deposited data

How the results depend on the processing

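The counts turned mainly with array scaling. After median centring 11 splicing genes were called towards animal and 36 towards vegetal (median -0.264, log2), 17 and 79 of the wider splicing genes, 1192 and 3283 of all genes, and 3679 and 6660 probe sets. With spiked-control scaling 4 splicing genes (median 0.245), 12 of the wider splicing genes, 824 genes and 1977 probe sets were higher in vegetal samples. Without the variance trend 31 of the wider splicing genes and 1615 of all genes were higher in vegetal samples, and 5 homeolog pairs differed. With 1 array left out, 18 to 24 splicing genes passed towards animal and 15 to 21 towards vegetal, and 6 to 9 homeolog pairs differed. Over all genes 1838 to 2102 passed towards animal and 1654 to 1794 towards vegetal, against 2177 and 1905 with all arrays. With the replicate number as a block the counts of the splicing genes were 23 and 17, and those of all genes 2097 and 1830. The calls of *srsf3.S* (adjusted p = 0.0611), *sf3b5.S* (0.0615) and, of the wider genes, *snrnp200.L* (0.0526) ended with the block. Same-numbered arrays did not deviate together (r of -0.0229, 0.00628 and -0.0135), so the numbers were not taken to pair samples. With the dimmest tested probe set for each gene, chosen after seeing the data, the counts were 26 and 15 of the 76 splicing genes. Over all 8026 genes they were 2199 and 1710. Of 1138 values of the splicing genes under alternatives, 917 kept their direction and side of the threshold and 79 changed sign, of which 67 were called neither as deposited nor under the alternative. The 3 other scalings account for 44 of the 79 and the mean of a gene's probe sets for 12. The values below also hold the wider genes *sf1.S* and *u2af1.S*. Differences (log2, animal minus vegetal) that changed sign after quantile normalization were those of *srsf5a.S* (0.028), *hnrnph1.S* (0.010), *hnrnpr.S* (0.140), *prpf19.L* (0.023), *prpf8.S* (-0.021), *sf3a3.S* (0.001), *sf3b6.S* (0.169), *snrpb2.S* (0.026), *srsf11.S* (0.003), *srsf2.L* (0.012) and *srsf7.S* (0.051). After median centring they were *sf1.S* (-0.091), *hnrnpa1.S* (-0.013), *hnrnpa2b1.S* (-0.112), *hnrnpc.L* (-0.231), *hnrnpdl.S* (-0.135), *lsm1.S* (-0.002), *lsm12.L* (-0.101), *prpf38a.S* (-0.188), *prpf4b.S* (-0.097), *prpf6.L* (-0.139), *prpf8.S* (-0.168), *srsf1.L* (-0.252), *srsf5.S* (-0.098) and *srsf7.L* (-0.062). With spiked-control scaling they were *srsf3.S* (0.041), *srsf5a.S* (0.125), *u2af1.S* (0.040), *hnrnpa1.L* (0.075), *hnrnpd.L* (0.209), *hnrnph1.S* (0.211), *hnrnph3.L* (0.097), *hnrnpr.S* (0.156), *lsm2.L* (0.136), *lsm5.L* (0.019), *lsm6.S* (0.233), *prpf18.L* (0.215), *prpf19.L* (0.204), *sf3a3.S* (0.108), *sf3b1.S* (0.109), *sf3b6.S* (0.206), *snrpa1.S* (0.072), *snrpb2.S* (0.207), *srsf11.S* (0.232), *srsf2.L* (0.028) and *srsf7.S* (0.062). With the mean of a gene's probe sets they were *srsf3.S* (0.046), *snrpb.L* (-0.516), *hnrnpa2b1.S* (-0.326), *hnrnpa3.L* (-0.002), *hnrnpu.L* (0.149), *lsm2.L* (2.361), *prpf6.L* (-0.018), *sf3a3.S* (0.007), *sf3b1.S* (0.402), *snrpa1.S* (0.063), *srsf11.L* (-0.184) and *srsf7.S* (0.224). Without 1 array the sign of these depended on the array: *hnrnpc.L* (-0.069 to 0.098), *hnrnpd.L* (-0.131 to 0.025), *hnrnph1.S* (-0.218 to 0.185), *lsm6.S* (-0.216 to 0.1), *prpf18.L* (-0.086 to 0.057), *prpf19.L* (-0.081 to 0.034), *prpf38a.S* (-0.011 to 0.156), *prpf8.S* (-0.022 to 0.167), *sf3b6.S* (-0.084 to 0.013), *snrpb2.S* (-0.085 to 0.016), *srsf1.L* (-0.045 to 0.091) and *srsf11.S* (-0.058 to 0.084). The cause of these changes was not tested.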
